A study of Mus musculus with 6 samples.

Results

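The semaphorin system of the mouse kidney was followed in 31 genes, which carried 60 of the 41174 probes measured. The rule that selects them uses gene names and no measured value: the semaphorins of classes 3 to 7, the plexins A to D and the neuropilins. They comprise 20 ligand genes with 38 probes and 11 receptor genes with 22 probes, and 30 of the 31 could be tested, having a signal well above background on 2 or more of the 6 arrays. The exception was Sema4f, whose probe was not well above background on any array.

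Kidney RNA was hybridised to 6 single-colour arrays. A mouse deficient in Gpr97 (the adhesion receptor gene now named Adgrg3) gave 1 array after renal ischaemia/reperfusion injury, in which blood flow to the kidney is stopped and then restored, and wild-type mice gave 2. Sham surgery was represented by 1 array of a Gpr97-deficient mouse and 2 arrays of wild-type mice. All samples are labelled male. The sources used here do not give how the deficiency was made, the strain and age of the mice, for how long flow was stopped or when kidneys were collected. The series title names Sema3A signalling, so that its ligand and receptor genes are described in any case. Each sample title ends in a different number, whose meaning is not stated. Nothing in the labels says whether the arrays of 1 group are from separate mice. The p-values therefore reflect only the sample-to-sample spread here, part of which may be technical. Whole kidney was measured, so fewer cells of a type and less RNA per cell cannot be told apart.

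Semaphorins are ligands first known from axon guidance. Class 3 members are secreted and mostly bind a neuropilin that holds a plexin A as the signalling partner, whereas classes 4, 5 and 6 span the membrane and bind plexins directly. Sema7a is held by a lipid anchor and binds integrins and Plxnc1. In plexins, ligand binding changes the activity of small GTPases and so the actin skeleton and cell adhesion, and in the kidney the system is known from vessels, podocytes and tubules.

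All signals below are log2 of the processed intensity minus the 75th percentile of its array, so a value of 1 is a doubling, and each probe is compared only with itself. Values of wild-type arrays are given in the order of arrays 1 and 2. Slide 1 carried wild-type injured array 2 and wild-type sham array 1, and slide 2 carried the remaining 4. Well above background were 63.0 to 71.1% of all probes and 43 to 49 of the 60 semaphorin, plexin and neuropilin probes per array, and 0 probes were saturated. Adgrg3, which checks the genotype labels, stood at -5.76 on the Gpr97-deficient injured array, where it was not well above background, against 1.06 and 1.18 on the wild-type injured arrays. After sham surgery it stood at -5.38 on the Gpr97-deficient array, where it was low but marked as well above background, against 0.19 and 0.02 on the wild-type arrays. Xist, which in females silences 1 of the X chromosomes, reached 4.05 on wild-type injured array 1 while no other array exceeded -5.45, and there 4 of 4 genes of the Y chromosome had no signal well above background. That array thus goes against its label of male. For the semaphorins, plexins and neuropilins the injury differences over both genotypes are also given without it, as are the genotype differences of Sema6b and Sema7a. The list of tubular injury genes (Havcr1, Lcn2, Krt20, Timp1, Sox9, Clu, Spp1) was higher after injury in 7 of 7 members, with a median of 3.62. As a check of the tissue label, 8 of 8 proximal tubule markers were well above background on all arrays.

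The genes with the largest injury differences of the system were ligands of classes 3, 6 and 7. Their regions upstream of the transcription start are shown for Sema6b, Sema7a and Sema3c, 250 bases each from RefSeq in the build GRCm38.p6. For Sema6b this is the first of its 2 promoters by genome coordinate. The region of Sema3a, the ligand named in the title, is shown beside them. Capitals mark an AP-1 motif (TGANTCA), the core of the hypoxia element (ACGTG) or a GC box (GGGCGG), searched on both strands.
Sema6b (chr17:56133853-56134102, minus strand): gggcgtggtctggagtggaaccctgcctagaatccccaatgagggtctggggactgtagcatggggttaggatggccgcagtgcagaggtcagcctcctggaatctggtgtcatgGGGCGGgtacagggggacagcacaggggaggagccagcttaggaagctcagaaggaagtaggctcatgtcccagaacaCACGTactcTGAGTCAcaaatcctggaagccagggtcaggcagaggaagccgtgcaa
Sema7a (chr9:57939862-57940111, plus strand): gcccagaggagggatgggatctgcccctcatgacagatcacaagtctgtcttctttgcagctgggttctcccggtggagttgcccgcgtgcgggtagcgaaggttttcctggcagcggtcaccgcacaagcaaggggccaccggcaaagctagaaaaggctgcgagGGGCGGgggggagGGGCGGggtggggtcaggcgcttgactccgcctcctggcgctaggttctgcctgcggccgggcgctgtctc
Sema3c (chr5:17574566-17574815, plus strand): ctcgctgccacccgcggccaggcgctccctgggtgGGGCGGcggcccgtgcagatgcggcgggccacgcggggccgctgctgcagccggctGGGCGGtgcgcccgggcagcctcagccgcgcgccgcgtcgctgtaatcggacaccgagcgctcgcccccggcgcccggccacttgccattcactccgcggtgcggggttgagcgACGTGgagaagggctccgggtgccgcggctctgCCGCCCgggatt
Sema3a (chr5:13396534-13396783, plus strand): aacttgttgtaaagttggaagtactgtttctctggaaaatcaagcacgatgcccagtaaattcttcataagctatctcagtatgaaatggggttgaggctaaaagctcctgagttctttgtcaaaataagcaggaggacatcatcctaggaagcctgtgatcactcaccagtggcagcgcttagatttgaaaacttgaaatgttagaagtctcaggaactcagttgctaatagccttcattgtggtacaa
The printed Sema6b promoter held the AP-1 letters 48 bases and the hypoxia core 57 bases before its start. The other Sema6b promoter held neither of them, but a GC box 40 bases before its start. Sema3c held the hypoxia core 45 bases before its start, and of the 3 motifs Sema7a held only the GC box. The window of Sema3a held none of the 3 motifs. Of the 31 genes, 26 were in the table, with 37 promoters, out of 32851 promoters in all. Among 14 motifs searched, the GC box was in 73.0% of the promoters of these genes and in 32.7% of all promoters. AP-1 letters were in 8.11% of them and 6.75% of all, the hypoxia core in 18.9% and 16.6%, and the letters TATAAA in 0 of 37 and 12.4%. The CCAAT box (CCAAT) was in 18.9% and 33.8%, SMAD letters (CAGACA) in 21.6% and 17.1%, TEAD letters (GGAATG) in 8.11% and 12.6%, SOX letters (ACAAAG) in 13.5% and 16.5%, and the Snail E-box (CAGGTG) in 13.5% and 17.2%. The Myc E-box (CACGTG), which contains the hypoxia core, was in 5.41% and 6.02%. In 0 of the 37 were the letters of CRE (TGACGTCA, 1.55% of all), the NF-kB motif by its name (0.356%), GAS (TTCNNNGAA, 7.02%) and the heat shock element (GAANNTTC, 6.69%). A match is a description of the letters and not a binding site.

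The first question was how the ligands and receptors differed between injured and sham kidneys over both genotypes. Of 30 members 18 were higher and 12 lower in injured kidneys, with a median of 0.09, against a median of -0.06 over all 19615 genes tested. Under normexp, a model-based subtraction of background, the median over all genes was 0.20 and the split was 23 higher and 7 lower. None passed limma's adjusted threshold of 0.05 (0 of 30, with 0% of all genes), and 6 of 30 had an unadjusted p under 0.05 (20%, against 12.3% of all genes). On 3 injured arrays against 3 sham arrays, 6 of 30 genes lay above all sham arrays (20%, against 9.71% of all genes): Sema3c, Sema3f, Sema6b, Sema7a, Plxna1 and Plxnb2. For 3 of them, Sema3f, Sema6b and Sema7a, the group means were also at least 2-fold apart (10%, against 2.52% of all genes). Plxnb3 was the 1 gene that lay below all sham arrays (3.33%, against 13.1% of all genes). Beside these values, 7 of 8 proximal tubule markers were lower after injury, with a summed level of 267 to 425 on injured and 582 to 760 on sham arrays, and 6 of 7 fibroblast and matrix markers were higher, at 39.1 to 55.6 on injured and 25.7 to 36.6 on sham arrays. Thick ascending limb and distal tubule markers were lower in 5 of 6 and collecting duct markers in 5 of 6. T and NK cell markers were lower in 6 of 6, of which 2 were well above background on all arrays. The summed levels of these lists overlapped between groups. They were 276 to 503 on injured and 458 to 556 on sham arrays for thick limb and distal tubule. Collecting duct sums were 28.4 to 68.1 and 54.5 to 72.6, and T and NK cell sums 0.27 to 0.78 and 0.44 to 2.57. Neutrophil markers were higher in 4 of 5. In wild type the summed neutrophil level was 29.3 and 12 on the injured arrays and 3.49 and 2.40 on the sham arrays. In Gpr97 deficiency it was 27.0 on the injured and 56.6 on the sham array, so injured and sham arrays overlapped. The part of these lists in the results was not tested. The residual SD of the members had a median of 0.33, and that of all genes 0.31.

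**Figure D1:**
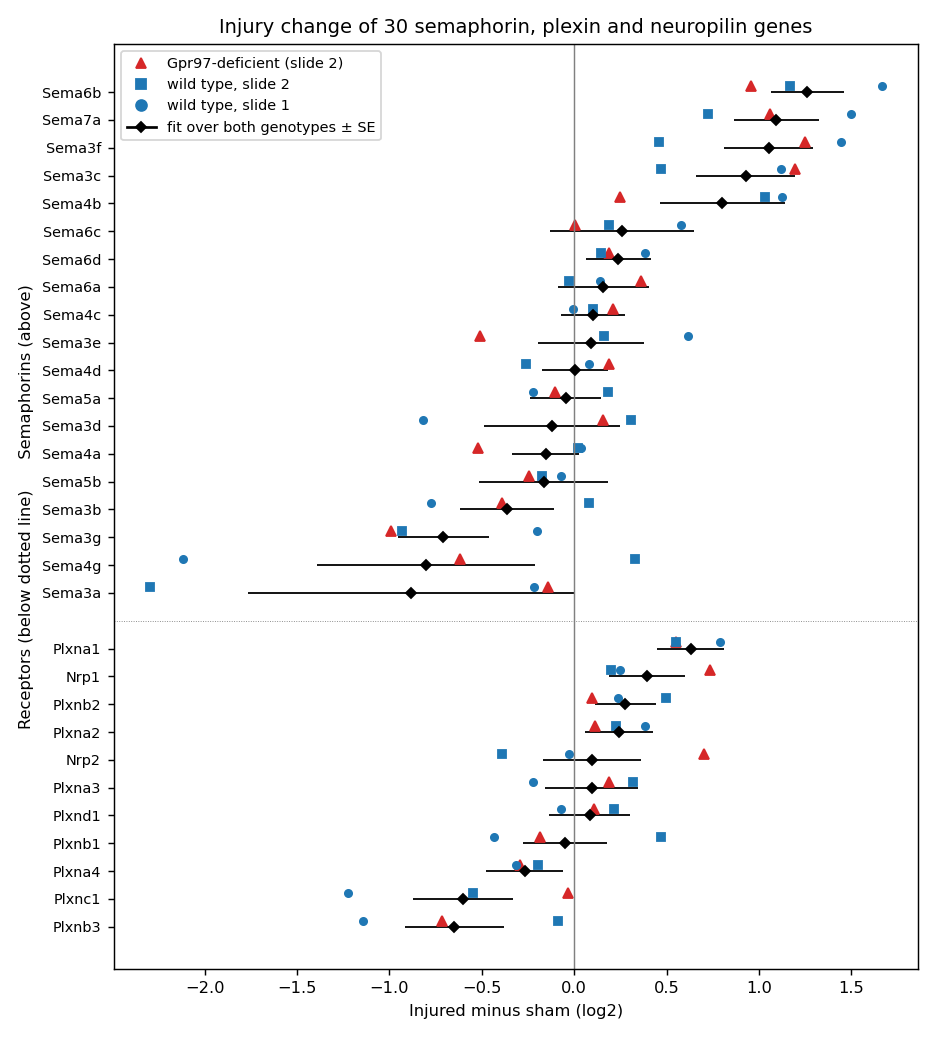
Injured minus sham signal (log2) of the 30 tested genes, semaphorins above and receptors below the dotted line. Black diamonds give the fit over both genotypes with its SE, and coloured points give the 3 differences between an injured and a sham array of the same genotype and slide; Sema6b, Sema7a, Sema3f and Sema3c lie right of 0 in all 3, and Sema3g lies left of it.

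Sema6b, a membrane-spanning class 6 semaphorin that binds plexins A (probe A_51_P417952, chr17:56262698-56262757 in mm9, minus strand), had the smallest unadjusted p. Its signal was -1.0 on the Gpr97-deficient injured array and -1.76 and -1.37 on the wild-type injured arrays. After sham surgery it was -1.96 on the Gpr97-deficient array and -3.04 and -2.93 on the wild-type arrays. Every injured array was above every sham array, with the Gpr97-deficient array highest within each surgery. Sema6b averaged -1.38 ± 0.38 in injured and -2.64 ± 0.60 in sham kidneys (SD, n = 3 each). The fitted difference was 1.26 (SE 0.20), or 2.40-fold, with an unadjusted p of 0.00144 and an adjusted p of 0.257 by limma. It was 1.67 within slide 1 and 1.17 within slide 2 in wild type, and 0.96 in Gpr97 deficiency. With slide as a block the difference was 1.26 (unadjusted p 0.00255), and without wild-type injured array 1 it was 1.33 (adjusted p 0.168).

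The other class 6 genes had small differences of the same sign, so that 4 of 4 were higher after injury, also with normexp, quantile-normalised and deposited values. Without wild-type sham array 1 this was 3 of 4. Sema6d, which binds Plxna1, differed by 0.24 (SE 0.18), Sema6c by 0.26 (SE 0.39) and Sema6a, which binds Plxna2 and Plxna4, by 0.16 (SE 0.25), all with an unadjusted p of 0.235 or higher. In these 3 genes injured and sham arrays overlapped.

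Sema7a, the lipid-anchored semaphorin (probe A_52_P410765, chr9:57810607-57810666, plus strand), showed the same order of arrays. It stood at 2.27 on the Gpr97-deficient injured array and at 1.30 and 2.0 on the wild-type injured arrays, against 1.21 on the Gpr97-deficient sham array and 0.50 and 0.57 on the wild-type sham arrays. The lowest injured array, wild-type array 1, was only slightly above the highest sham array, which was the Gpr97-deficient one. The means were 1.86 ± 0.50 in injured and 0.76 ± 0.39 in sham kidneys (SD, n = 3 each). Sema7a differed by 1.09 (SE 0.23), or 2.14-fold, with an unadjusted p of 0.00497 and an adjusted p of 0.269. Within slides the wild-type differences were 1.50 (slide 1) and 0.73 (slide 2), and the Gpr97-deficient difference was 1.06. Its receptor Plxnc1 went the other way, at -4.20 on the Gpr97-deficient injured array and -4.04 and -4.59 on the wild-type injured arrays, against -4.16, -3.37 and -3.49 on the matching sham arrays. On wild-type injured array 2 Plxnc1 was not well above background, and its fitted difference of -0.60 (SE 0.27, adjusted p 0.45) turned to 0.39 with normexp.

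Among the secreted class 3 ligands, Sema3f and Sema3c were higher, Sema3g was lower and 4 others had no clear order. Sema3f, a ligand that prefers Nrp2 (probe A_51_P389814, chr9:107584788-107584847, minus strand), stood at 0.15 on the Gpr97-deficient injured array and at -0.73 and -0.34 on the wild-type injured arrays. Sham arrays gave -1.10 in Gpr97 deficiency and -1.78 and -1.19 in wild type, so the groups did not overlap. It averaged -0.31 ± 0.44 in injured and -1.36 ± 0.37 in sham kidneys (SD, n = 3 each), and differed by 1.05 (SE 0.24), 2.07-fold, with an unadjusted p of 0.00687 and an adjusted p of 0.284. The wild-type difference was 1.44 within slide 1 and 0.46 within slide 2, and the second Sema3f probe differed by 0.73.

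Sema3c, which guides vessel and heart outflow development through neuropilins (probe A_52_P87839, chr5:17234078-17234137, plus strand), stood at -1.21 on the Gpr97-deficient injured array and at -1.58 and -0.77 on the wild-type injured arrays. On the sham arrays it stood at -2.40 in Gpr97 deficiency and -1.89 and -2.04 in wild type. All injured arrays were above all sham arrays, by little for wild-type injured array 1. The difference was 0.93 (SE 0.27), with an unadjusted p of 0.0178 and an adjusted p of 0.332, and a second probe differed by 0.83. Without wild-type injured array 1 it was 1.20 (unadjusted p 0.00205).

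Sema3g, a class 3 ligand known from endothelium (probe A_52_P312102, chr14:32043435-32043494, plus strand), was lower in each of the 3 pairs. It stood at 2.67 on the Gpr97-deficient injured array and at 2.25 and 2.27 on the wild-type injured arrays, against 3.66 on the Gpr97-deficient sham array and 2.47 and 3.18 on the wild-type sham arrays. The groups overlapped through wild-type sham array 1. The difference was -0.71 (SE 0.25, unadjusted p 0.0345, adjusted p 0.373). It was -0.20 within slide 1, -0.93 within slide 2 in wild type and -0.99 in Gpr97 deficiency. The list of 9 endothelial markers was well above background throughout. Its median relative to wild-type sham kidneys was 0.57 on the Gpr97-deficient injured array and -0.12 and 0.09 on the wild-type injured arrays, against 0.18 on the Gpr97-deficient sham array. Its summed level was 51.6 to 77.5 on injured and 53.4 to 61.9 on sham arrays, and its part in the Sema3g values was not tested.

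Sema3b, a secreted ligand that binds neuropilins, stood at 1.20 on the Gpr97-deficient injured array and at 1.62 and 0.80 on the wild-type injured arrays, against 1.60, 1.58 and 1.54 on the matching sham arrays. The 3 sham arrays lay within a narrow range that the injured arrays straddled, with a difference of -0.36 (SE 0.25, adjusted p 0.604). Without wild-type injured array 1 it was -0.60, with an unadjusted p of 0.0307. Sema3e, which binds Plxnd1 without a neuropilin, stood at -2.88 on the Gpr97-deficient injured array and at -2.81 and -2.19 on the wild-type injured arrays, against -2.37, -2.81 and -2.97 on the matching sham arrays. It was higher after injury in both wild-type pairs and lower in Gpr97 deficiency, with a difference of 0.09 (SE 0.29) over both. Sema3d differed by -0.12 (SE 0.37), with overlapping groups.

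**Figure D2:**
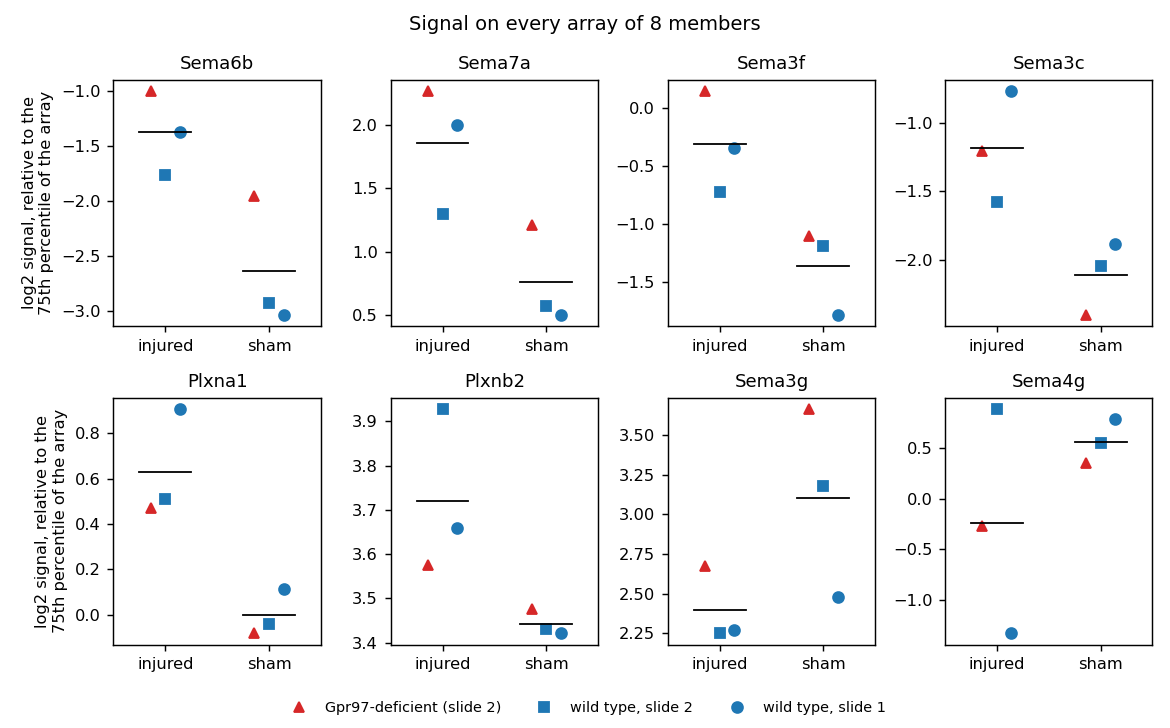
Signal of 8 genes on every array (log2 minus the 75th percentile), injured arrays left and sham arrays right, with a line at each group mean. Triangles are Gpr97-deficient arrays, squares wild-type arrays of slide 2 and circles wild-type arrays of slide 1; in Sema6b, Sema7a, Sema3f, Sema3c, Plxna1 and Plxnb2 all 3 injured arrays lie above all 3 sham arrays, and Sema4g separates the 2 wild-type injured arrays.

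The 4 probes of Sema3a did not show 1 pattern. Their first 30 bases of 60 are printed because the probes lie far apart on the same chromosome and disagree (mm9).
A_52_P527748 (chr5:13602253-13602312, plus strand): gaaaagagtagaaagagcactgtaaattac
A_52_P679511 (chr5:13495798-13495857, plus strand): aaataactgcattcttcttcaacatagagc
A_51_P163146 (chr5:13599978-13600037, plus strand): agcagatgaatattccaaaacgtgattgga
A_51_P434777 (chr5:13293523-13293582, plus strand): ccacttagcacctattattctagttttctg
Only A_52_P527748, designed on the transcript NM_009152, was well above background on most arrays (5 of 6). It stood at -4.35 on the Gpr97-deficient injured array and at -6.22 (not well above background) and -3.12 on the wild-type injured arrays. The sham arrays gave -4.21 in Gpr97 deficiency and -2.91 and -3.93 in wild type. Wild-type injured array 1 was lowest, both arrays of slide 1 were highest, and the groups overlapped. Sema3a averaged -4.57 ± 1.56 in injured and -3.68 ± 0.68 in sham kidneys (SD, n = 3 each). The difference of -0.88 (SE 0.88, adjusted p 0.732) was 0.11 without wild-type injured array 1 and 0.37 with normexp. Probe A_52_P679511, designed on AK053115, behaved in the opposite way: -1.88 on wild-type injured array 1, where it was well above background, and -4.65 or lower on the other 5 arrays, where it was not. The remaining 2 probes, of NM_009152 and AK052051, were not well above background on any array. The 2 wild-type injured arrays thus differed in which Sema3a probe was detected.

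The receptors of class 3 ligands are the neuropilins, which bind the ligand, and the plexins A, which signal. Nrp1, which also binds VEGF, stood at 0.48 on the Gpr97-deficient injured array and at -0.08 and -0.33 on the wild-type injured arrays, against -0.26 on the Gpr97-deficient sham array and -0.58 and -0.27 on the wild-type sham arrays. The array of the injured Gpr97-deficient kidney was the highest, the wild-type groups overlapped, and the difference was 0.39 (SE 0.20, adjusted p 0.503). The 3 Nrp1 probes gave changes of -0.30 to 0.68, with 2 higher and 1 lower. Nrp2 stood at 1.91 on the Gpr97-deficient injured array and at 1.06 and 1.50 on the wild-type injured arrays, against 1.21 on the Gpr97-deficient sham array and 1.53 and 1.45 on the wild-type sham arrays. It was again highest on the Gpr97-deficient injured array and lowest on wild-type injured array 1, with a difference of 0.10 (SE 0.26).

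Plxna1, a plexin A that pairs with neuropilins and also binds Sema6d, differed between its 2 probes, whose first 30 bases are given in mm9; the file lists a span shorter than the probe for the second.
A_52_P480141 (chr6:89266528-89266587, minus strand): agaaagatatttttaaggtgaagcccatga
A_51_P501922 (chr6:89266290-89266322, minus strand): ctcgccttcctctccctgccatgcaggcca
The first stood at 0.47 on the Gpr97-deficient injured array and at 0.51 and 0.91 on the wild-type injured arrays, against -0.08 on the Gpr97-deficient sham array and 0.11 and -0.04 on the wild-type sham arrays. By this probe the groups did not overlap and the difference was 0.63 (SE 0.18, unadjusted p 0.0169, adjusted p 0.33), at 0.79, 0.55 and 0.55 in the 3 pairs. The second stood at -0.18 on the Gpr97-deficient injured array and at 0.05 and 0.27 on the wild-type injured arrays, against 0.14 on the Gpr97-deficient sham array and 0.94 and 0.11 on the wild-type sham arrays. Its difference was -0.35, and the mean of both probes differed by 0.14 (adjusted p 0.84).

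**Figure D3:**
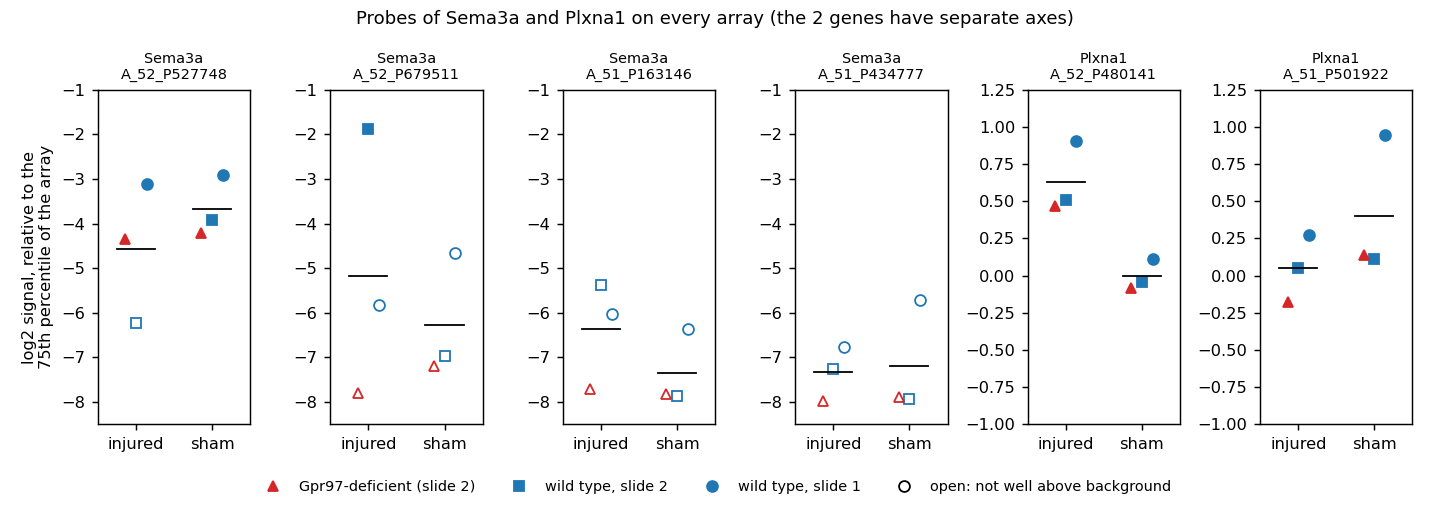
Signal (log2 minus the 75th percentile) of the 4 Sema3a probes and the 2 Plxna1 probes on every array, injured left and sham right, with lines at group means and open symbols for signals not well above background. Sema3a A_52_P679511 is filled on wild-type injured array 1 alone, at -1.88, where A_52_P527748 is open, at -6.22; the 2 Plxna1 probes differ in sign.

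Plxna2 stood at 0.51 on the Gpr97-deficient injured array and at 0.30 and 0.68 on the wild-type injured arrays, against 0.40 on the Gpr97-deficient sham array and 0.30 and 0.07 on the wild-type sham arrays. Its 3 probes were all higher after injury, by 0.24 to 0.69, while the probe used for the test overlapped between groups (0.24, SE 0.18). Plxna3, a receptor for Sema3f together with Nrp2, stood at -3.88 on the Gpr97-deficient injured array and -3.95 and -3.73 on the wild-type injured arrays, against -4.06, -3.50 and -4.27 on the matching sham arrays. All 3 injured values lay within the range of the sham values (difference 0.09, SE 0.25). Plxna4 stood at -1.97 on the Gpr97-deficient injured array and -1.65 and -2.13 on the wild-type injured arrays, against -1.68, -1.82 and -1.45 on the matching sham arrays. It was lower in each of the 3 pairs, by 0.20 to 0.32, with overlapping groups (difference -0.27, SE 0.21).

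The plexins B are receptors of class 4 semaphorins. Plxnb2, which binds Sema4c and Sema4g, stood at 3.57 on the Gpr97-deficient injured array and at 3.93 and 3.66 on the wild-type injured arrays, against 3.48 on the Gpr97-deficient sham array and 3.42 and 3.43 on the wild-type sham arrays. The groups did not overlap, though the gap was small, and the difference was 0.28 (SE 0.17, adjusted p 0.551). Plxnb1, the receptor of Sema4d, differed by -0.05 (SE 0.23) and Plxnd1, the receptor of Sema3e, by 0.08 (SE 0.22), both with overlapping groups. Plxnb3, a receptor of Sema5a, stood at -4.31 on the Gpr97-deficient injured array and at -4.08 and -4.95 on the wild-type injured arrays, against -3.59, -3.81 and -4.0 on the matching sham arrays. It was not well above background on wild-type injured array 2, and its difference of -0.65 (SE 0.27, adjusted p 0.426) turned to 0.47 with normexp.

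Among class 4 ligands, which act on immune cells as well as on neurons, Sema4b had the largest difference toward higher signal. It stood at -3.37 on the Gpr97-deficient injured array and at -3.08 and -3.72 on the wild-type injured arrays, against -3.62 on the Gpr97-deficient sham array and -4.85 (not well above background) and -4.12 on the wild-type sham arrays. The wild-type groups did not overlap, and the Gpr97-deficient sham array reached the injured range. Sema4b differed by 0.80 over both genotypes (SE 0.34, adjusted p 0.431). Sema4g, a ligand of Plxnb2, stood at -0.27 on the Gpr97-deficient injured array and at 0.88 and -1.33 on the wild-type injured arrays, against 0.35, 0.79 and 0.55 on the matching sham arrays. The 2 wild-type injured arrays lay on opposite sides of all sham arrays, at -2.12 against sham within slide 1 and 0.33 within slide 2. The difference of -0.80 (SE 0.59) was -1.40 (unadjusted p 0.0222, adjusted p 0.227) without wild-type injured array 1, and leaving out array 2 in its place gave -0.14. Sema4d, a ligand of Plxnb1 that also binds Cd72 on immune cells, stood at -0.78 on the Gpr97-deficient injured array and at -0.79 and -0.42 on the wild-type injured arrays, against -0.97, -0.50 and -0.53 on the matching sham arrays. Its groups overlapped, with a difference of 0.00 (SE 0.18).

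Sema4a stood at 3.33 on the Gpr97-deficient injured array and at 3.55 and 3.56 on the wild-type injured arrays, against 3.85, 3.53 and 3.53 on the matching sham arrays. The 4 wild-type arrays lay close together, with the Gpr97-deficient arrays on either side of them, and the difference was -0.15 (SE 0.18). Sema4c, a ligand of Plxnb2, stood at -1.55 on the Gpr97-deficient injured array and at -1.53 and -1.33 on the wild-type injured arrays. The matching sham arrays gave -1.76, -1.32 and -1.63, and the difference was 0.10 (SE 0.17). A second Sema4c probe, not well above background on wild-type sham array 1, differed by 0.85 (adjusted p 0.40 by limma). The mean of both probes differed by 0.47 (adjusted p 0.463). In class 5, whose members carry thrombospondin repeats, Sema5b stood at -1.25 on the Gpr97-deficient injured array and at -1.25 and -0.32 on the wild-type injured arrays, against -1.01, -0.25 and -1.07 on the matching sham arrays. The 2 arrays of slide 1 were the highest for Sema5b, which differed by -0.16 (SE 0.35), and Sema5a differed by -0.05 (SE 0.19).

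Without wild-type injured array 1, Sema7a differed between injured and sham kidneys by 1.29, Sema3f by 1.19, Plxna1 by 0.73 and Sema3g by -0.74 (unadjusted p 0.0697). Plxnb3 differed by -0.91 (unadjusted p 0.0089) and Sema3b by -0.60, both lower than with that array. Sema4b then differed by 0.54, Plxnb2 by 0.18, Plxnc1 by -0.68, Nrp1 by 0.37, Nrp2 by 0.31, Plxna2 by 0.33, Plxna3 by 0.17 and Plxna4 by -0.41. Among the genes with small differences, Sema6a was at 0.36, Sema6c at 0.01, Sema6d at 0.34, Sema3d at -0.04, Sema3e at 0.18, Sema4a at -0.20, Sema4c at 0.18, Sema4d at 0.14, Sema5a at -0.20 and Plxnb1 at -0.24. Sema5b at 0.09 and Plxnd1 at -0.08 had the opposite sign to that with all arrays, as did Sema3a. No gene passed the adjusted threshold without it. Of these genes 8 had an unadjusted p under 0.05, as did 3420 of all 19615 genes (2410 with all arrays).

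In all, 11 of 30 genes were higher in the injured array of all 3 pairs of the same genotype and slide (36.7%, against 18.6% of all genes), and 6 were lower in all 3 (20%, against 26.5% of all genes). None differed by 2-fold or more in all 3 pairs (0 of 30, against 1.17% of all genes higher and 0.775% lower). Ligands and receptors had like medians, 0.09 for 19 ligands and 0.09 for 11 receptors, with 11 and 7 genes higher. Between the 2 wild-type injured arrays 2 of 30 genes were at least 2-fold apart (6.67%, against 17.5% of all genes), Sema3a and Sema4g. Between the 2 wild-type sham arrays 3 were (10%, against 14.6%).

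Within wild type alone, 2 injured arrays were set against 2 sham arrays. None of 30 passed the adjusted threshold (0% of all genes), and 4 had an unadjusted p under 0.05 by limma (13.3%, against 6.4% of all genes). The 4 were Sema6b at 1.42 (SE 0.27, unadjusted p 0.00554), Sema7a at 1.11 (SE 0.33, unadjusted p 0.0278), Sema3f and Plxnc1. Sema3f differed by 0.95 (SE 0.33, unadjusted p 0.045) and Plxnc1 by -0.89 (SE 0.30, unadjusted p 0.04). With normexp the number was 1 (408 of all 19615 genes). When 1 wild-type array was left out, Sema6b ran from 1.22 to 1.61 and Sema7a from 0.76 to 1.46. Sema3f then ran from 0.65 to 1.25 and Plxnc1 from -1.16 to -0.61. In Gpr97 deficiency, with 1 array per group and the spread taken from the wild-type arrays, 0 of 30 passed the adjusted threshold (0% of all genes) and 0 had an unadjusted p under 0.05 (2.74% of all genes). Sema3f differed there by 1.25, Sema3c by 1.20, Sema7a by 1.06, Sema6b by 0.96 and Sema3g by -0.99. Both comparisons feed the fit over both genotypes and are no independent check of it.

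The second question was how these genes differed with Gpr97 deficiency. Over both surgeries 16 of 30 were higher and 14 lower, with a median of 0.03, against -0.01 over all genes. None passed the adjusted threshold (0% of all genes), and 2 had an unadjusted p under 0.05 (6.67%, against 3.27% of all genes), namely Sema6b at 0.80 (SE 0.21, unadjusted p 0.0131, adjusted p 0.994) and Sema7a at 0.65 (SE 0.24, unadjusted p 0.0451, adjusted p 0.994). Sema6b averaged -1.48 ± 0.68 in Gpr97-deficient (SD, n = 2) and -2.28 ± 0.83 in wild-type kidneys (SD, n = 4). For Sema7a the means were 1.74 ± 0.75 in Gpr97-deficient and 1.09 ± 0.70 in wild-type kidneys. Within slide 2, Sema6b was 0.76 higher in the Gpr97-deficient array after injury and 0.97 higher after sham surgery, and Sema7a 0.97 and 0.64 higher. The wild-type injured array of slide 2 is array 1, whose Xist and Y chromosome signal goes against its label. On wild-type injured array 2 Sema6b stood at -1.37 and Sema7a at 2.0. These values are nearer to those of the Gpr97-deficient injured array, -1.0 and 2.27. Without the Gpr97-deficient sham array the Sema6b difference was 0.57 (unadjusted p 0.155), and with normexp it was 0.29 (unadjusted p 0.413). Without wild-type injured array 1 it was 0.75 for Sema6b and 0.50 for Sema7a (unadjusted p 0.0581). The number of genes with an unadjusted p under 0.05 was 4 with slide as a block (917 of all 19615 genes) and 1 with normexp (121 of them). It was 1 without wild-type sham array 1 (482 of all genes) and 3 without wild-type sham array 2 (1137 of all genes).

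Some marker lists also differed between the genotypes. The summed level of 5 measured neutrophil markers was 27.0 on the Gpr97-deficient injured array and 29.3 and 12 on the wild-type injured arrays, and 56.6 on the Gpr97-deficient sham array and 3.49 and 2.40 on the wild-type sham arrays. That of 5 measured red blood cell markers was 62.5 on the Gpr97-deficient injured array and 127 and 5.89 on the wild-type injured arrays, and 258 on the Gpr97-deficient sham array and 11.8 and 15.5 on the wild-type sham arrays. Both sums were thus highest on the Gpr97-deficient sham array. After injury the Gpr97-deficient array lay between the 2 wild-type arrays in both. Endothelial markers were higher in Gpr97 deficiency in 9 of 9 (0.14 to 0.50), macrophage markers in 6 of 6 (0.08 to 0.85), podocyte markers in 6 of 6 (0.02 to 0.53) and thick ascending limb and distal tubule markers in 6 of 6 (0.12 to 0.95). Collecting duct markers were higher in 5 of 6. Toward lower signal were proximal tubule markers in 5 of 8 and fibroblast and matrix markers in 5 of 7, and T and NK cell markers split 3 to 3. The part of these lists in the genotype values, those of Sema6b, Sema7a, Sema3g, Nrp1 and Nrp2 included, was not tested.

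The single gene with both Gpr97-deficient arrays above all 4 wild-type arrays was Sema5a (3.33%, against 4.27% of all genes), a class 5 semaphorin, at 1.32 and 1.42 in Gpr97 deficiency and 0.71 to 1.21 in wild type. Its difference was 0.40 (SE 0.20, unadjusted p 0.107). A second Sema5a probe, well above background on all arrays, did not show this order. It stood at -3.58 and -3.59 in Gpr97 deficiency and at -3.98 to -3.25 in wild type. Sema3g and Sema3f followed Sema6b and Sema7a in size, at 0.62 (SE 0.26) and 0.53 (SE 0.25), and toward lower signal were Sema5b at -0.40 (SE 0.37), Sema4d at -0.31 (SE 0.19), Plxnc1 at -0.31 (SE 0.29) and Sema4c at -0.20 (SE 0.18). Sema3a differed by -0.23 (SE 0.94) over both surgeries, at 1.87 after injury and -0.28 after sham surgery within slide 2, where the injured wild-type value is array 1, not well above background.

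**Figure D4:**
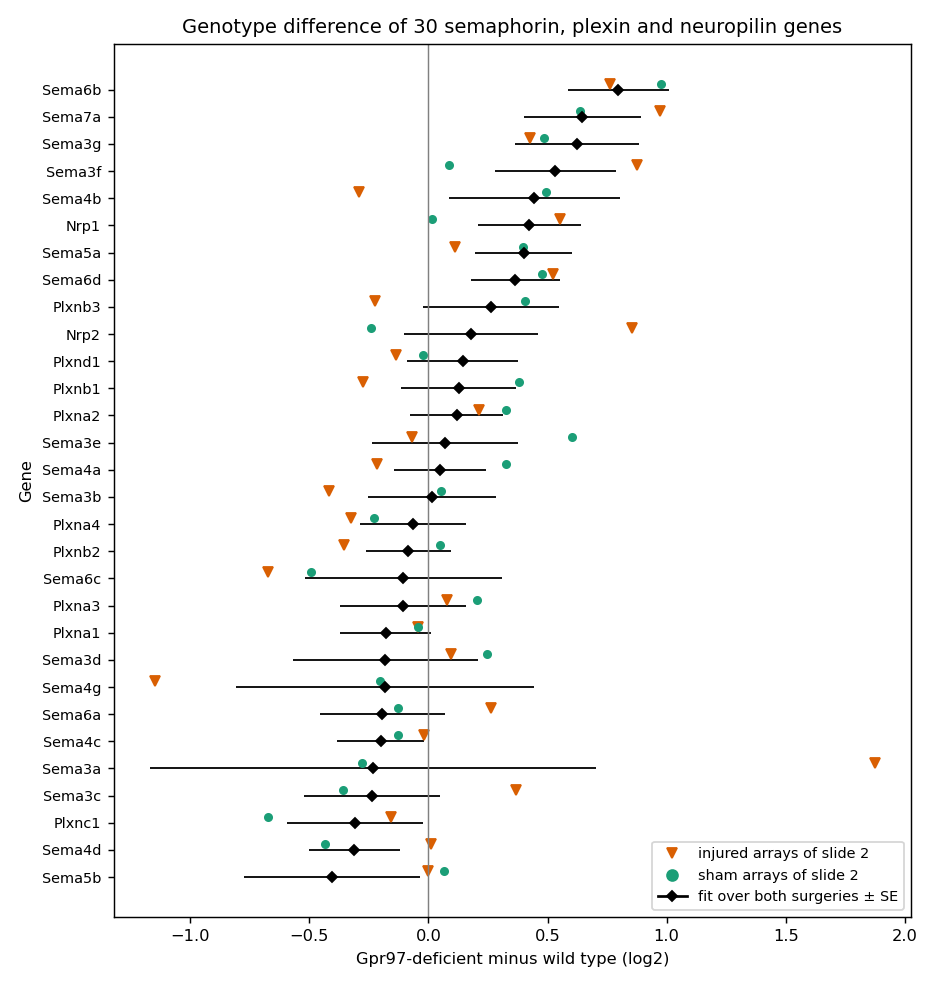
Gpr97-deficient minus wild-type signal (log2) of the 30 tested genes. Black diamonds give the fit over both surgeries with its SE, triangles the difference of the injured arrays of slide 2 and circles that of the sham arrays of slide 2; Sema6b, Sema7a and Sema3g lie right of 0 in both, and Sema3a, Sema4g and Nrp2 are far apart between surgeries.

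In injured kidneys alone 0 of 30 passed and 0 had an unadjusted p under 0.05 (1.43% of all genes), with 1 Gpr97-deficient array against 2 wild-type arrays. The largest differences of receptors there were in Nrp1 at 0.68 (SE 0.32) and Nrp2 at 0.64 (SE 0.34). In sham kidneys 0 passed and 1 had an unadjusted p under 0.05 (3.33%, against 2.15% of all genes), Sema6b at 1.03 (SE 0.33, unadjusted p 0.0332). Whether the injury difference itself differed between genotypes was tested as an interaction: 0 of 30 passed (0% of all genes) and 0 had an unadjusted p under 0.05 (1.49% of all genes). Nrp2 gave 0.91 (SE 0.47, unadjusted p 0.125), Plxnc1 0.85 (SE 0.52), Nrp1 0.51 (SE 0.46), Sema3c 0.40 (SE 0.63), Sema3e -0.90 (SE 0.55), Sema4b -0.83 (SE 0.71), Sema4a -0.55 (SE 0.39) and Sema6b -0.46 (SE 0.46). The SEs of these differences were 0.39 or more, and a p that misses the threshold does not show that the genotypes responded alike.

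Genes that act with semaphorins and plexins were described from a list of 65, of which 63 were tested. The list was chosen with earlier results of these data known, so its shares are no independent comparison with all genes. Its values without wild-type injured array 1 are not given. After injury 37 were higher and 26 lower, with a median of 0.10. None passed the adjusted threshold, and 13 of 63 had an unadjusted p under 0.05 toward higher (5.57% of all genes did) and 3 toward lower signal (6.72% of all genes). Of 34 effectors 7 were toward higher and 0 toward lower, of 17 co-receptors 3 and 1, of 6 competing neuropilin ligands 2 and 1, and of 6 proteases that cut semaphorins or plexins 1 and 1. The 3 partners with the largest differences each way are described. Rnd1, a GTPase that binds plexins, stood at -0.44 on the Gpr97-deficient injured array and -0.25 and 0.16 on the wild-type injured arrays, against -1.60, -2.71 and -1.98 on the matching sham arrays. All injured arrays were above all sham arrays, by 1.92 (SE 0.35, unadjusted p 0.00277, adjusted p 0.262).

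Nrcam, an adhesion molecule that joins neuropilins in neurons, stood at -0.99 on the Gpr97-deficient injured array and -1.97 and 0.12 on the wild-type injured arrays, against -2.67, -2.40 and -3.27 on the matching sham arrays. It did not overlap between groups and differed by 1.83 (SE 0.60, adjusted p 0.362). Mical2, an enzyme that oxidises actin, stood at -2.11 on the Gpr97-deficient injured array and -2.28 and -1.12 on the wild-type injured arrays, against -3.18, -2.74 and -3.87 on the matching sham arrays. It differed by 1.43 (SE 0.45, adjusted p 0.353), again without overlap.

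Toward lower signal, Vegfb, a VEGF family ligand that binds Nrp1, stood at 3.74 on the Gpr97-deficient injured array and 3.57 and 2.61 on the wild-type injured arrays, against 4.78, 3.89 and 4.13 on the matching sham arrays. The groups did not overlap, and the difference was -0.96 (SE 0.29, adjusted p 0.342). Pcsk6, a proprotein convertase, differed by -1.21 (SE 0.55, adjusted p 0.456), and Mst1r, a receptor kinase that can pair with plexins B, by -0.69 (SE 0.33, adjusted p 0.478), both with overlapping groups.

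**Figure D5:**
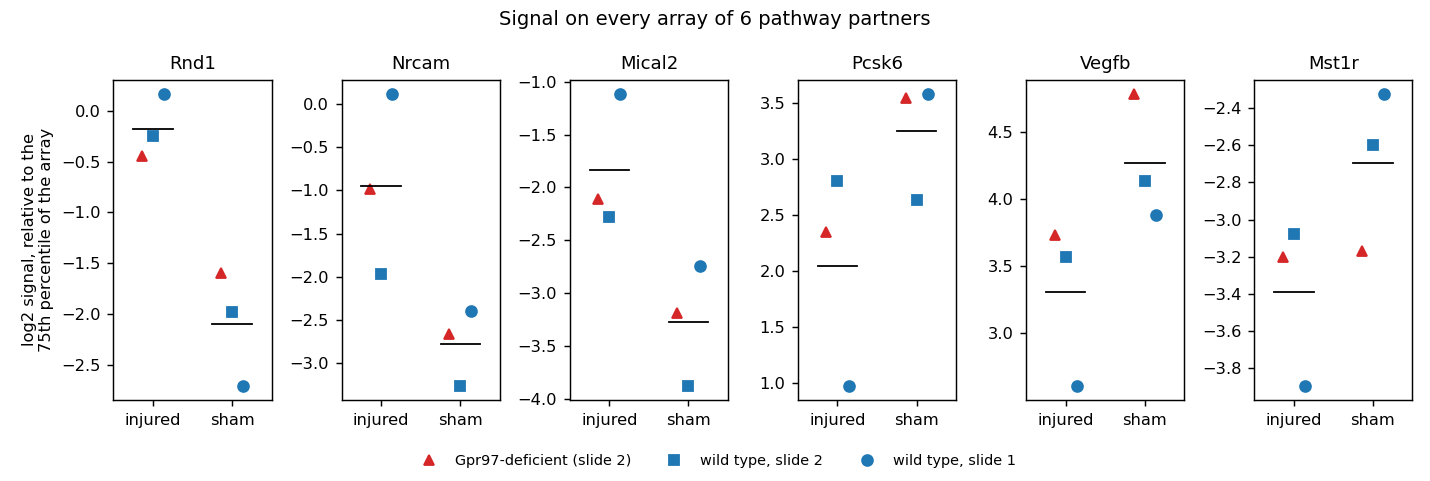
Signal (log2 minus the 75th percentile) of the 6 pathway partners with the largest injury differences, injured arrays left and sham arrays right, with lines at group means and separate axes. Triangles are Gpr97-deficient arrays, squares wild-type arrays of slide 2 and circles wild-type arrays of slide 1; the injured arrays of Rnd1, Nrcam and Mical2 lie above all sham arrays and those of Vegfb below them.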

How the data were processed

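Kidney RNA was labelled with Cy3 and read on 6 single-colour Agilent arrays, per the labels. The deposited scanner files hold the processed intensity of each spot, made with Feature Extraction 10.7.1.1 (slide 1) or 10.7.3.1 (slide 2) under protocol GE1_107_Sep09, per the file headers. Probe positions are those of mm9 in the deposited files. The other columns used were the deposited flags for spots well above background, saturated or outlying. The authors' deposited series values were read as log2 values. Their Spearman correlation with the scanner signals was at least 0.999, which compares ranks only and cannot show the scale. Their exact normalization and centring are unknown. Per the submitters' processing notes limma was used, with no version named.

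Of 45018 spots 43379 were used, the control spots being left out. Outlying spots, 80 to 120 per array, were then left out on the array concerned, and replicate spots were averaged. Each signal was put on the log2 scale and the 75th percentile of the array subtracted. Names came from accessions for 27668 of the 41174 probes, from symbols or synonyms of the RefSeq gene list for 6060, and from the file for 7446. The probe with the highest mean stood for its gene, and 19615 genes well above background on 2 or more arrays were tested. Where 2 or more probes of a member were measured on all arrays (13 genes), 4 genes had probes of opposite sign (Nrp1, Plxna1, Sema5a, Sema6d).

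Tests used limma 3.58.1 in R 4.3.3, two-sided, fitted to all genes and adjusted by Benjamini-Hochberg over all of them at 0.05. Comparisons over both genotypes or surgeries used an additive model (3 residual degrees of freedom). The others used group means (2 residual degrees of freedom), which gives the single Gpr97-deficient arrays the spread of the wild-type ones. The 2 wild-type arrays of each surgery were on different slides, read with different Feature Extraction versions. The injured pair also differed in Xist and Y chromosome signal. In these fits the spread between arrays therefore cannot be told apart from slide, and their SEs and p-values rest on it. The fits were tested on simulated data. Members, partners and marker lists were chosen with earlier results of these data known. Described on every array are the Sema3A axis, the 4 members with the largest moderated t each way in 4 comparisons, and members whose groups did not overlap and differed by 2-fold. Of partners, the 3 with the largest difference each way are named. Plxnb2 and Sema5a were chosen after their values were seen. Alternatives were normexp (offset 50), quantile normalization, the deposited values, slide as a block, other filters and probe rules, a trend and robust prior, and leaving out each array. The number of arrays limits the precision.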

Additional observations from a re-analysis of the deposited data

Results flagged for a closer look

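Sema4a, a class 4 semaphorin, hardly differed after injury in wild type (0.03). It was 0.52 lower in the Gpr97-deficient kidney, with 1 array per surgery. The change in Gpr97 deficiency minus that in wild type was -0.55 (SE 0.39), and the limma interaction had an unadjusted p of 0.231.

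The other values came from probes not used for the tests. The Sema3a probe A_52_P679511 stood at -1.88 and was well above background on wild-type injured array 1 only. The Plxnc1 probe A_52_P299832 stood at -5.08 and was well above background on the same array only. Arrays differ in how low a detected signal can be, at -5.49 on wild-type injured array 1 and -4.62 on wild-type injured array 2. Wild-type injured array 1 also carried Xist at 4.05.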

How the results depend on the processing

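Over 14 alternatives, 560 of 588 recomputed values of 45 results kept their direction and their side of the threshold, 28 reversed and 0 passed the threshold newly; 28 results never reversed. No member passed the adjusted threshold under any setting. Some of the recomputed values could not differ, so the tally is no measure of robustness by itself. For injury over both genotypes, slide as a block, the other filters and the trend and robust prior left Sema6b at 1.26. Leaving out either Gpr97-deficient array gave 1.42 both times, since only the wild-type arrays then set the difference. For injury over both genotypes, the smallest adjusted p of Sema6b was 0.134 and its difference ran from 1.04 to 1.42. Members at an unadjusted p under 0.05 numbered 3 to 8 when 1 array was left out. They numbered 3 without wild-type sham array 2 (1595 of all 19615 genes) and 8 without wild-type injured array 1 (3420 of all genes). Members with all injured arrays below all sham arrays numbered 0 with normexp, with quantile normalization and among genes above background on all arrays. When 1 array was left out they numbered 1 to 5 (5 without wild-type injured array 1). The share of all genes was not computed for these settings. With normexp, injury over both genotypes reversed to -6e-04 for Nrp2, 0.18 for Plxna4, 0.47 for Plxnb3, 0.39 for Plxnc1 and 0.37 for Sema3a, injury in wild type to 0.87 for Plxnb3 and 0.65 for Plxnc1, and the Plxnc1 interaction to -0.79. In Gpr97 deficiency over both surgeries, Plxna3 reversed to 0.011 with quantile normalization, 0.0139 with the deposited values and 0.14 with slide as a block, Plxna4 to 0.0186 with the mean of probes, and with slide as a block Sema3a to 0.80 and Sema5b to 0.0323. When 1 array was left out, injury over both genotypes ran from -0.21 to 0.31 for Nrp2, -0.11 to 0.33 for Plxna3 and -1.66 to 0.11 for Sema3a, and injury in wild type from -2.00 to 0.21 for Sema4g. Gpr97 deficiency over both surgeries then ran from -0.28 to 0.64 for Nrp2, -0.26 to 0.0675 for Plxna3, -0.17 to 0.0426 for Plxna4, -0.74 to 0.12 for Plxnc1 and -0.98 to 0.35 for Sema3a, and the Sema3c interaction from -0.0037 to 0.81. The cause of these changes was not tested. No paired analysis was possible because the numbers in the sample titles do not match between injured and sham arrays. In its place, arrays of the same genotype and slide were set side by side, and slide was fitted as a block. Genes near background, such as Sema3a, Plxnb3 and Plxnc1, are limited by their signal over background.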
